A study of Mus musculus with 21 samples.

Results

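Club cells are the secretory cells of the small airways, and 8 genes that they use for secretion and for detoxification were followed in the growing mouse lung: Scgb1a1, Scgb3a1, Scgb3a2, Cyp2f2, Aldh3a1, Adh7, Sult1d1 and Gsta3. They were chosen by gene symbol, and each had 1 probe set on the array, so the 8 are all the members among 19938 genes measured. The tissue was the right lung of male C57BL/6 mice, whose remaining lobes grow after the left lung is removed (left pneumonectomy). The 7 conditions were day 0 without pneumonectomy, days 3, 7, 14, 28 and 56 after left pneumonectomy, and, as surgical control, day 56 after a sham operation. Sham arrays exist for day 56 only, so days 3 to 28 had no sham of the same day. Early effects of the operation itself are therefore not controlled for. Each condition had 3 arrays, taken from the medial lobe, the cardiac lobe and the right lung as a whole, which made 21 arrays. The labels used here state neither the animals' ages nor whether regions share or pool animals. A whole lung sample can contain the lobes that were also sampled alone.

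Values are log2 expression, so a difference of 1 is a doubling. Differences come from a limma model with terms for condition and region, apart from the early response by region, whose model is described below. They are given as log2 ± SE, and count as called where the p-value, adjusted by Benjamini-Hochberg over all genes, was under 0.05. A condition had 1 array per region, so p-values of the condition and region model rest on how far a change differed between regions. Such differences may be partly technical, and 21 arrays limit the precision. In tissue of mixed cells, fewer club cells and less RNA per club cell cannot be told apart.

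Club cells line the bronchioles, where they release secretoglobins into the airway fluid, break down inhaled chemicals and act as progenitors for the airway lining. Scgb1a1 encodes the club cell secretory protein, also called uteroglobin, and Scgb3a1 and Scgb3a2 encode further small secreted proteins of that family. Detoxification runs in steps: oxidising enzymes such as Cyp2f2, a cytochrome P450 that activates naphthalene, and the aldehyde and alcohol dehydrogenases Aldh3a1 and Adh7 prepare a molecule, and transferases such as the sulfotransferase Sult1d1 and the glutathione transferase Gsta3 attach a group that makes it easier to excrete.

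Promoter sequence from RefSeq (build GRCm38.p6) was at hand for 5 of the 8 genes, as the 250 bases before the annotated start. The 4 windows printed here are those of the 3 enzymes with a window that fell at some day after pneumonectomy, and that of the secretoglobin with a window. They lie at chr1:21240335-21240584 (plus strand, Gsta3), chr5:87569007-87569256 (minus strand, Sult1d1), chr3:138217523-138217772 (plus strand, Adh7, inside the annotated span of the gene) and chr11:49663345-49663594 (plus strand, Scgb3a1). Each is written 5′ to 3′ on the strand of its gene, with matches to 5 short motifs in capitals.
Gsta3: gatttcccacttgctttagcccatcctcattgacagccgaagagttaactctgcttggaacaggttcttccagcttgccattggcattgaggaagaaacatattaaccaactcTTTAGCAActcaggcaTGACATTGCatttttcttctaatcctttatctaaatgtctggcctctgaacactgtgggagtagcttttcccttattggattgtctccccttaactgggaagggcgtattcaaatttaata
Sult1d1: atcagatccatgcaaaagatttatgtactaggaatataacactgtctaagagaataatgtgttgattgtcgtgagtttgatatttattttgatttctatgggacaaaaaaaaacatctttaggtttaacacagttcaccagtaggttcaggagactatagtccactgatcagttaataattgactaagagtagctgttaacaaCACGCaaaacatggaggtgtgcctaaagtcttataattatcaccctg
Adh7: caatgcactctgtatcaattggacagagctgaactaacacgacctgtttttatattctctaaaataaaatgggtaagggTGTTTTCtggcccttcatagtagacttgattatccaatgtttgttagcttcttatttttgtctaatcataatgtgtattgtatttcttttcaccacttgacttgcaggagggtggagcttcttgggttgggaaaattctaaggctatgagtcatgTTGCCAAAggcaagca
Scgb3a1: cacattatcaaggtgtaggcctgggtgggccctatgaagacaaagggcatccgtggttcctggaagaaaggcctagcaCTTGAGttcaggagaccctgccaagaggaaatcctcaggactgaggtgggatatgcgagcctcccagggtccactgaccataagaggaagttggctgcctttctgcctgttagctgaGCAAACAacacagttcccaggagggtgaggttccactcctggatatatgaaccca
The motifs were searched on both strands in 32851 windows of this length, and no match overlapped another in these 4. The antioxidant response element (TGACNNNGC), which NRF2 binds, was in 10.16% of all windows and in that of Gsta3 as TGACATTGC. The C/EBP motif (TTNNGCAA) was in 9.56% of windows, and in Gsta3 as TTTAGCAA and in Adh7 as TTGCCAAA on the other strand. The FOXA motif (TGTTTNC), in 17.84% of windows, was matched by Adh7 and, on the other strand, by Scgb3a1. The NKX2-1 motif (CTCAAG), in 13.33% of windows, was matched by Scgb3a1 on the other strand, and the AHR motif (GCGTG), in 28.16%, by Sult1d1 on the other strand. The window of Cyp2f2 (chr7:27119705-27119954, plus strand) matched none of the 5, which says only that these letters are not in those bases. A match is a description of letters, not evidence of binding.

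**Figure D1:**
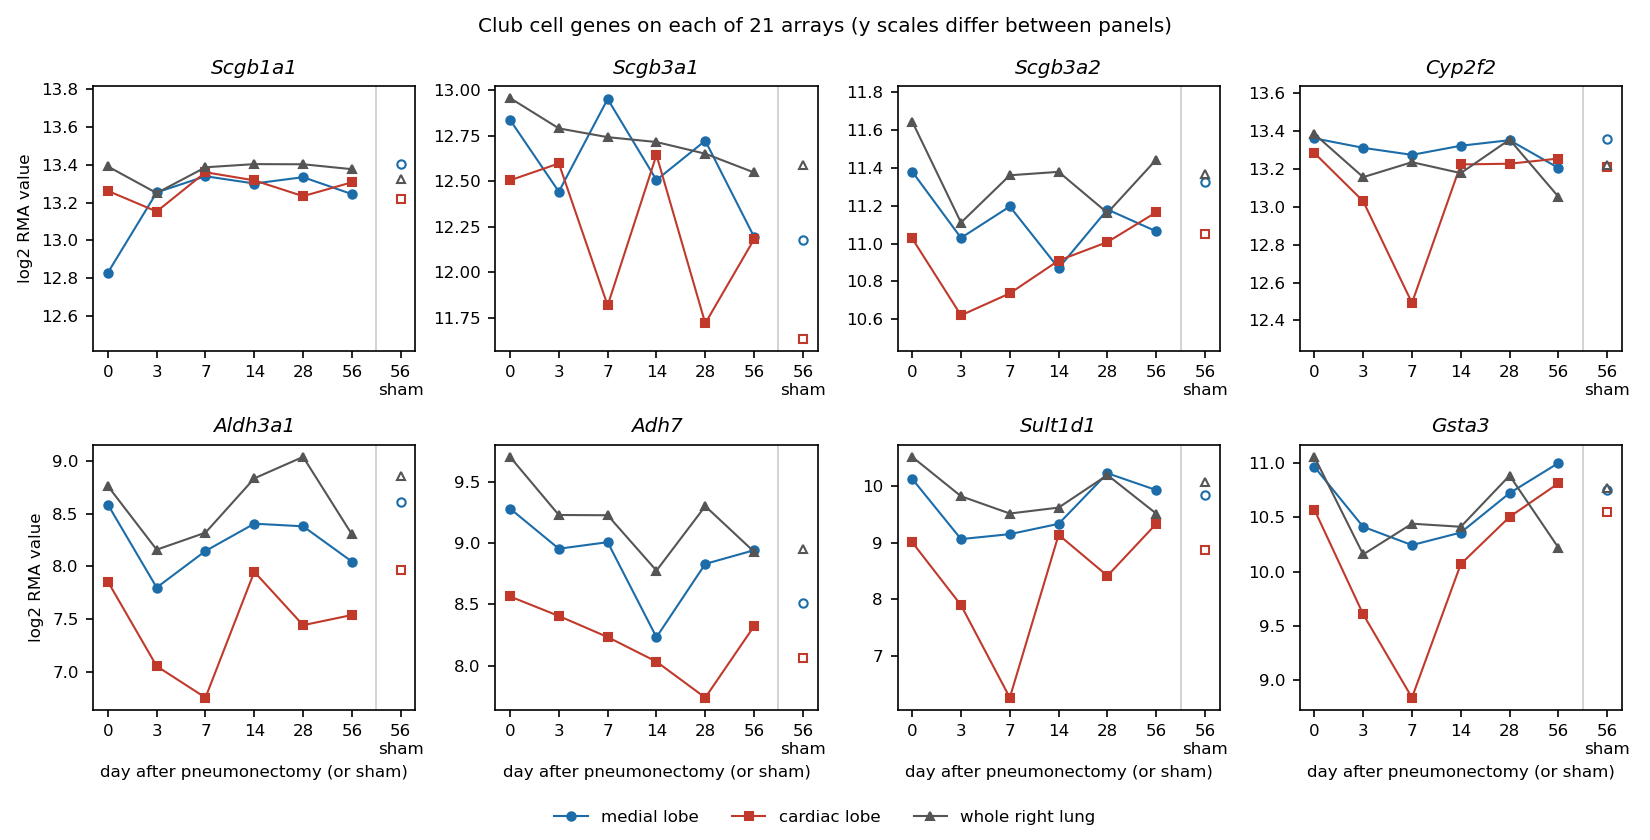
Log2 expression (y axis, its scale differing between panels) of each of the 8 genes on each of 21 arrays, against day after left pneumonectomy (x axis) with day 56 sham surgery at the right; lines join arrays of 1 region and the labels do not say that they are the same animals. The cardiac lobe lies lowest for Aldh3a1 and Adh7 in every condition, and on day 7 it holds the lowest Sult1d1 (6.28) and Gsta3 (8.84) of all arrays.

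2 arrays stood apart and bear on several results below. The day 7 cardiac lobe array and the day 56 pneumonectomy whole lung array had the smallest spread of values in their region (interquartile range 3.34 and 3.13) and the highest mean over 59 small RNA genes there (8.15 and 9.84, with the other cardiac arrays from 6.90 to 7.48 and the other whole lung arrays from 7.77 to 9.0). Results for the 8 genes, and the counts of other gene lists printed here, that change without these 2 arrays are given with and without them, in the latter case on 19 arrays. Array medians ran from 5.98 to 6.18. One further array, the whole lung on day 28, held high squamous keratins: Krt4 was 9.06 and Krt13 was 8.92 there, against at most 5.08 and 5.14 on the other 20. Squamous epithelium of the upper digestive tract is known to make Adh7 and Aldh3a1 as well. This array held the highest Aldh3a1 value of all (9.04), while its Adh7 value (9.30) lay below that of the day 0 whole lung array (9.71). Whether such tissue was present on this array was not tested.

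Of the secretoglobins, Scgb1a1 passed the test in no comparison and Scgb3a1 in none between conditions, and Scgb3a2 fell by 0.43 on the log2 scale on day 3 against day 0.

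Scgb1a1 in the medial lobe measured 12.83 on day 0, then 13.25, 13.34, 13.30, 13.33 and 13.25 on days 3, 7, 14, 28 and 56, and 13.40 after sham. Scgb1a1 in the cardiac lobe measured 13.26 on day 0, then 13.15, 13.36, 13.32, 13.23 and 13.31, and 13.22 after sham. Scgb1a1 in the whole lung measured 13.39 on day 0, then 13.25, 13.39, 13.40, 13.40 and 13.38, and 13.33 after sham. Apart from the day 0 medial array, all values lay within 13.15 and 13.40, and the conditions overlapped. The values sat close to the top of the table's scale, where the highest value of any gene was 14.059, and how far a gene so near the top can still move was not tested. The differences against day 0 ran from 0.06 ± 0.10 on day 3 (95% interval -0.15 to 0.27) to 0.20 ± 0.10 on day 7 (-0.01 to 0.41), with limma adjusted p of 0.810 and 0.185. Day 0 had the lowest of the 7 condition means, and it held the lowest of all Scgb1a1 values.

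Scgb3a1, which is also made by other secretory cells of the larger airways, varied more between arrays than Scgb1a1 did. Scgb3a1 in the medial lobe measured 12.84 on day 0, then 12.44, 12.95, 12.51, 12.72 and 12.19 on days 3 to 56, and 12.18 after sham. Scgb3a1 in the cardiac lobe measured 12.50 on day 0, then 12.60, 11.82, 12.64, 11.72 and 12.18, and 11.63 after sham. Scgb3a1 in the whole lung measured 12.96 on day 0, then 12.79, 12.74, 12.71, 12.65 and 12.55, and 12.59 after sham. The cardiac lobe moved up and down between 11.63 and 12.64, while the whole lung values spanned 12.55 to 12.96. No condition passed the test against day 0 or sham. The sham arrays had the lowest condition mean, with a difference from day 0 of -0.63 ± 0.21 (limma adjusted p = 0.275, lower in 3 of 3 regions), and days 3, 7 and 14 lay above sham in 3 of 3 regions, by 0.48, 0.37 and 0.49, without passing.

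Scgb3a2 in the medial lobe measured 11.38 on day 0, then 11.03, 11.20, 10.87, 11.18 and 11.06, and 11.32 after sham. Scgb3a2 in the cardiac lobe measured 11.03 on day 0, then 10.62, 10.74, 10.91, 11.01 and 11.17, and 11.05 after sham. Scgb3a2 in the whole lung measured 11.65 on day 0, then 11.11, 11.36, 11.38, 11.16 and 11.44, and 11.37 after sham. In each region day 3 lay below day 0, although the groups overlapped because the regions differ. The fall on day 3 was 0.43 ± 0.11 on the log2 scale, or 1.35-fold (limma adjusted p = 0.0289, lower in 3 of 3 regions). It did not pass when the day 0 medial, day 0 whole lung, day 3 cardiac or day 3 whole lung array was left out, with differences from -0.42 to -0.38. Against sham the day 3 difference was -0.33 ± 0.11 (adjusted p = 0.0932), so this fall was called against 1 of the 2 controls.

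Among the oxidising enzymes, Aldh3a1 fell on days 3 and 7 against both controls, day 0 and day 56 sham. Adh7 fell on day 14 against day 0. Cyp2f2 did not pass the test in any comparison of conditions over all regions.

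Cyp2f2 in the medial lobe measured 13.36 on day 0, then 13.31, 13.28, 13.32, 13.35 and 13.21, and 13.36 after sham. Cyp2f2 in the cardiac lobe measured 13.29 on day 0, then 13.03, 12.49, 13.22, 13.23 and 13.26, and 13.21 after sham. Cyp2f2 in the whole lung measured 13.39 on day 0, then 13.16, 13.24, 13.18, 13.36 and 13.05, and 13.22 after sham. One value stood out, the day 7 cardiac lobe at 12.49, with every other array between 13.03 and 13.39. Its values on days 7 and 56 after pneumonectomy lay wholly below those of day 0, and how many of all genes do so was not counted. The day 7 difference from day 0 was -0.34 ± 0.13 (limma adjusted p = 0.101), and -0.12 ± 0.07 without the 2 arrays that stood apart (adjusted p = 0.394). Like Scgb1a1, Cyp2f2 sat near the top of the scale.

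Aldh3a1, which oxidises aldehydes formed from lipids and from inhaled compounds, was the only 1 of the 8 called on both early days against both controls on all 21 arrays. Aldh3a1 in the medial lobe measured 8.59 on day 0, then 7.80, 8.15, 8.40, 8.38 and 8.04, and 8.61 after sham. Aldh3a1 in the cardiac lobe measured 7.86 on day 0, then 7.05, 6.75, 7.95, 7.44 and 7.54, and 7.96 after sham. Aldh3a1 in the whole lung measured 8.76 on day 0, then 8.16, 8.32, 8.83, 9.04 and 8.30, and 8.86 after sham. Days 3 and 7 lay below both controls in all 3 regions, and day 14 was back near them, with a difference from day 0 of -0.01 ± 0.15. Aldh3a1 fell by 0.73 ± 0.15 on day 3 against day 0, or 1.66-fold (limma adjusted p = 0.0083), and by 0.81 ± 0.15 against sham (adjusted p = 0.00345). On day 7 it fell by 0.66 ± 0.15 against day 0 (limma adjusted p = 0.0177) and by 0.74 ± 0.15 against sham (adjusted p = 0.0122). The step from day 7 up to day 14 was 0.66 ± 0.15 (limma adjusted p = 0.0627), which did not pass.

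The day 3 fall of Aldh3a1 passed with any 1 array left out, against both controls. With the lobes alone it was -0.80 against day 0, which did not pass (limma adjusted p = 0.0757), and -0.86 against sham, which did (adjusted p = 0.0454). Without the region term in the model neither passed (adjusted p = 0.521 and 0.500). The day 7 fall against day 0 did not pass without the day 0 medial, day 0 cardiac or day 7 cardiac array, and that against sham did not pass without the day 7 cardiac or sham cardiac array. Without the 2 arrays that stood apart it was -0.46 ± 0.13 against day 0 (limma adjusted p = 0.0624) and -0.53 ± 0.13 against sham (adjusted p = 0.0443). By day 56 after pneumonectomy Aldh3a1 was again below sham in 3 of 3 regions, with a difference of -0.51 ± 0.15 that did not pass (adjusted p = 0.280).

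Adh7, an alcohol dehydrogenase that also oxidises retinol, followed another course. Adh7 in the medial lobe measured 9.28 on day 0, then 8.96, 9.01, 8.23, 8.83 and 8.94, and 8.52 after sham. Adh7 in the cardiac lobe measured 8.57 on day 0, then 8.41, 8.23, 8.03, 7.74 and 8.32, and 8.06 after sham. Adh7 in the whole lung measured 9.71 on day 0, then 9.23, 9.23, 8.78, 9.30 and 8.93, and 8.95 after sham. Day 0 was the highest condition in each region, and all 6 later conditions, sham included, lay below it. On day 14 Adh7 fell by 0.84 ± 0.14 against day 0, or 1.79-fold (limma adjusted p = 0.00758), and this did not pass without the day 14 medial array (-0.71). The sham difference from day 0 was nearly as large, at -0.68 ± 0.14 (adjusted p = 0.0588), and passed without the 2 arrays that stood apart (adjusted p = 0.0213). No day differed from sham by a test that passed, and on day 14 that difference was -0.16 ± 0.14.

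The transferases carried the largest differences. Sult1d1 and Gsta3 fell on day 7 against day 0, by 2.96-fold and 2.03-fold, and the cardiac lobe had the lowest value of each.

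Sult1d1 in the medial lobe measured 10.12 on day 0, then 9.06, 9.15, 9.33, 10.22 and 9.92, and 9.84 after sham. Sult1d1 in the cardiac lobe measured 9.005 on day 0, then 7.90, 6.28, 9.14, 8.42 and 9.33, and 8.87 after sham. Sult1d1 in the whole lung measured 10.50 on day 0, then 9.81, 9.51, 9.61, 10.19 and 9.51, and 10.07 after sham. All regions were lower on days 3 and 7 than on day 0, and the day 7 cardiac value lay far below every other. The fall on day 7 was 1.56 ± 0.41 on the log2 scale (limma adjusted p = 0.0290), whereas day 3 gave -0.95 ± 0.41 (adjusted p = 0.201). The day 7 call was lost without the day 7 cardiac array (-0.90) and without any of the 3 day 0 arrays (-1.62 to -1.53). With both arrays that stood apart omitted, day 3 passed at -0.95 ± 0.23 (adjusted p = 0.0128) and day 7 did not at -0.93 ± 0.26 (adjusted p = 0.0535).

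Gsta3 in the medial lobe measured 10.96 on day 0, then 10.41, 10.24, 10.36, 10.72 and 10.997, and 10.75 after sham. Gsta3 in the cardiac lobe measured 10.57 on day 0, then 9.61, 8.84, 10.07, 10.50 and 10.81, and 10.55 after sham. Gsta3 in the whole lung measured 11.05 on day 0, then 10.16, 10.44, 10.41, 10.88 and 10.22, and 10.77 after sham. All 9 arrays of days 3, 7 and 14 lay below all 6 control arrays, so these groups did not overlap. How many of all genes separate in this way was not counted. Gsta3 fell by 1.02 ± 0.26 on day 7 against day 0 (limma adjusted p = 0.0248), a call lost without the day 7 cardiac array (-0.62) or any 1 of the 3 day 0 arrays (-1.07 to -0.98). Day 3 was -0.80 ± 0.26 (adjusted p = 0.0754), and day 14 was -0.58 ± 0.26 (adjusted p = 0.403). When the 2 arrays that stood apart were omitted, the standard errors were smaller and Gsta3 passed on all 3 days: -0.80 ± 0.10 on day 3 (limma adjusted p = 0.000147), -0.64 ± 0.11 on day 7 (adjusted p = 0.00618) and -0.58 ± 0.10 on day 14 (adjusted p = 0.00466). Against sham it then passed on days 3 (-0.63) and 7 (-0.47) as well.

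Counted together, 2 of the 8 genes fell on day 3 (Aldh3a1 and Scgb3a2), where 2.73% of all genes were called lower, 3 fell on day 7 (Aldh3a1, Gsta3 and Sult1d1), where 4.97% were, and 1 fell on day 14 (Adh7), where 0.707% were. None rose. Without the region term in the model, 0 of 8 passed on any of these days. The share of all genes called in that fit is not given here, so this count cannot be set against it. On the 19 other arrays the counts were 4, 1 and 2, beside 7.75%, 2.82% and 2.45% of all genes. The median difference of the 8 from day 0 was -0.38 on day 3 and -0.35 on day 7, against 0.01 and 0.03 over all genes. From sham it was -0.21 on both days, against -0.004 and 0.006 over all genes. On the 19 arrays the medians were -0.38 and -0.25 from day 0, and -0.21 and -0.05 from sham. Sham itself had a median difference of -0.14 from day 0. Against sham, Aldh3a1 alone of the 8 was called on day 3 (3.21% of genes lower) and on day 7 (2.15%).

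At later times fewer of the 8 were called. On days 28 and 56 and after sham, 0 of 8 passed against day 0, as did 0.0%, 0.0903% and 0.381% of all genes in either direction. At an unadjusted limma p under 0.05 these were 1, 3 and 2 of the 8, beside 7.22%, 14.2% and 9.31% of all genes. Against sham, days 14, 28 and 56 gave 0 of 8 each, beside 0.0652%, 0.186% and 0.336% of all genes. Under that unadjusted p were 1, 0 and 1 of 8, beside 5.42%, 7.64% and 8.18% of all genes. A test for any difference among the 7 conditions called Aldh3a1 (limma adjusted p = 0.00587) and Adh7 (adjusted p = 0.0183), where 7.76% of genes were called, and Adh7 was lost without the day 0 medial or day 0 whole lung array. Without the 2 arrays that stood apart, this test also called Gsta3 (limma adjusted p = 0.000278) and Sult1d1 (adjusted p = 0.0477), where 12.5% of genes were called. Steps between neighbouring times (days 3 to 7, 7 to 14, 14 to 28 and 28 to 56) called 0 of 8 each, beside 0.0652%, 0.727%, 0.145% and 0.0% of genes. In these steps 0, 3, 0 and 0 of the 8 had an unadjusted limma p under 0.05, beside 10.4%, 12.5%, 6.76% and 5.54% of all genes.

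**Figure D2:**
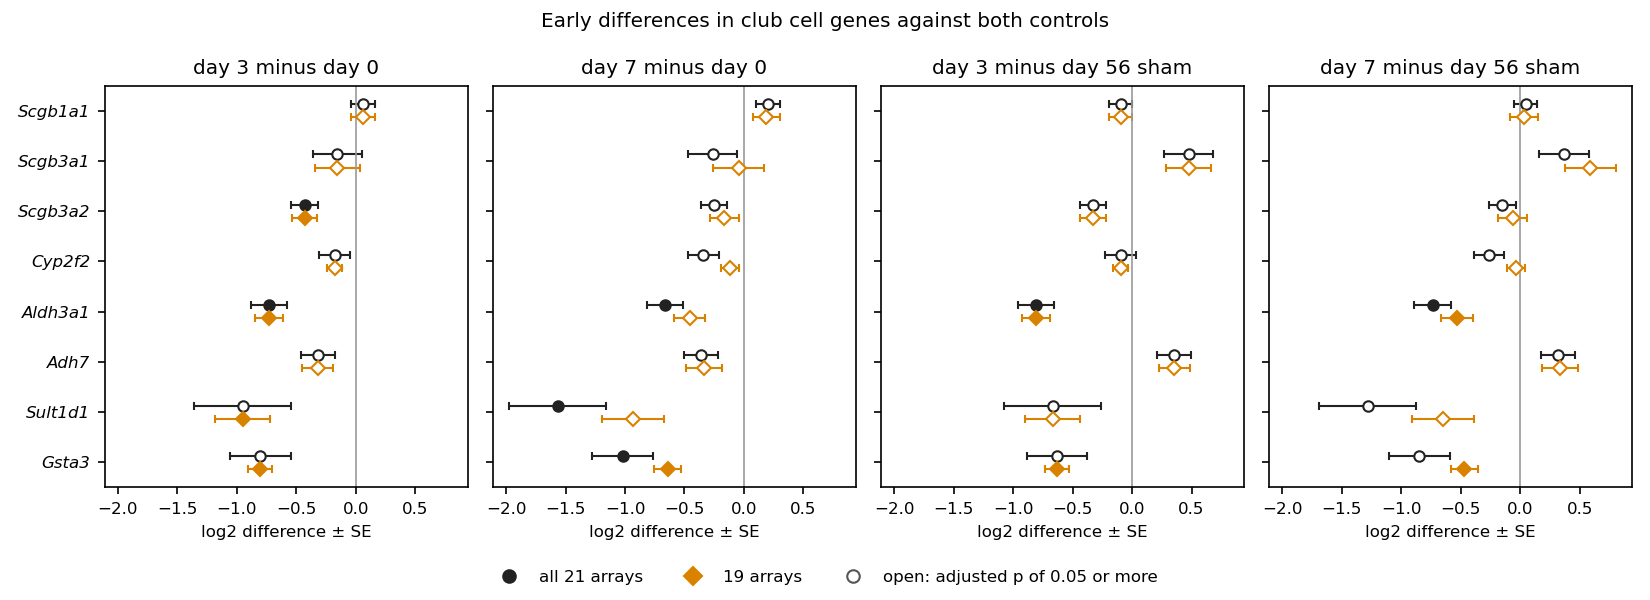
Fitted log2 difference ± SE of the 8 genes on days 3 and 7 against day 0 and against day 56 sham; black circles use all 21 arrays and orange diamonds leave out the day 7 cardiac lobe and day 56 pneumonectomy whole lung arrays (19 arrays), and filled symbols have a limma adjusted p under 0.05. Aldh3a1 on day 3 is filled in both fits against both controls, whereas Sult1d1 and Gsta3 shift toward 0 on day 7 when the 2 arrays are left out.

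Several of these genes also differed between lung regions. The cardiac lobe, the small lobe of the right lung that lies by the heart, held less Aldh3a1 and Adh7 than the medial lobe did, and less of 5 of the 8 than the whole right lung.

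Between the lobes, Aldh3a1 averaged 7.51 ± 0.47 in the cardiac and 8.28 ± 0.30 in the medial lobe (SD, n = 7 arrays each), a difference of -0.77 ± 0.10 or 1.71-fold (limma adjusted p = 0.0102). Adh7 averaged 8.19 ± 0.27 and 8.82 ± 0.35, a difference of -0.63 ± 0.09 or 1.55-fold (adjusted p = 0.0161). Both were lower in the cardiac lobe in 7 of 7 conditions, the lobe differences ranging from -1.39 to -0.46 for Aldh3a1 and from -1.09 to -0.20 for Adh7. In this comparison 0.0351% of genes were called lower in the cardiac lobe, which is 7 genes, 2 of them members. The call for Aldh3a1 held with any 1 array left out, and neither gene was called without the condition term in the model. Adh7 did not pass without the medial array of day 0, 3, 7 or 28 or the cardiac array of day 3, with differences from -0.65 to -0.60.

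Sult1d1 had the widest gap between the lobes, -1.24 ± 0.27 and lower in the cardiac lobe in 7 of 7 conditions, but it did not pass (limma adjusted p = 0.124). On the 19 other arrays it was -0.97 ± 0.16 and did (adjusted p = 0.0260). Gsta3 was also lower in the cardiac lobe in 7 of 7 conditions, at -0.50 ± 0.17, as were Scgb3a1, Scgb3a2 and Cyp2f2 in 5, 5 and 6 of 7, and none of these passed. Scgb1a1 differed by 0.02 ± 0.06 (95% interval -0.12 to 0.16). The median over the 8 was -0.44, against 0.02 over all genes.

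Against the whole right lung, 5 of 8 were lower in the cardiac lobe, where 4.78% of genes were called lower. Sult1d1 differed by -1.47 ± 0.27 or 2.76-fold, Aldh3a1 by -1.10 ± 0.10 or 2.15-fold and Adh7 by -0.97 ± 0.09 or 1.95-fold, and for these 3 the 7 cardiac values lay wholly below the 7 whole lung values. How many of all genes separate in this way was not counted, and 35.5% had an unadjusted limma p under 0.05 between these regions. Scgb3a1 (-0.56 ± 0.14) and Scgb3a2 (-0.42 ± 0.07) were lower in 7 of 7 conditions, with ranges that overlapped. All 5 calls held with any 1 array left out. Gsta3 was at -0.43 ± 0.17 and passed without the 2 arrays that stood apart (-0.39, limma adjusted p = 0.00164).

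The medial lobe was closer to the whole lung. Adh7 (-0.34 ± 0.09) and Aldh3a1 (-0.33 ± 0.10) were called lower there, where 7.41% of genes were. Adh7 lost its call without the day 14 medial array (-0.28). Aldh3a1 lost its call without the medial array of day 14, 28 or 56 or sham, or the whole lung array of day 14 or 28, at -0.34 to -0.26.

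When both lobes were averaged and set against the whole lung, 5 of 8 were lower, beside 8.79% of all genes: Sult1d1 (-0.85), Aldh3a1 (-0.72), Adh7 (-0.65), Scgb3a1 (-0.36) and Scgb3a2 (-0.31). Scgb3a1 lost its call without the medial array of day 14 or 56, the sham cardiac array, or the whole lung array of day 28, day 56 pneumonectomy or sham (-0.36 to -0.31). Without the 2 arrays that stood apart Scgb3a1 was not called (-0.31, limma adjusted p = 0.0597) and Gsta3 was (-0.23, adjusted p = 0.0128). The count thus stayed at 5, beside 9.53% of all genes called lower. The high small RNA means given above also belonged to the whole lung, which ran from 7.77 to 9.84 against 6.90 to 8.15 in both lobes, and their part in the difference was not tested. Without the day 28 whole lung array and its squamous keratins, Adh7 was at -0.59 ± 0.08 (limma adjusted p = 0.000433) and Aldh3a1 at -0.65 ± 0.08 (adjusted p = 0.000342).

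**Figure D3:**
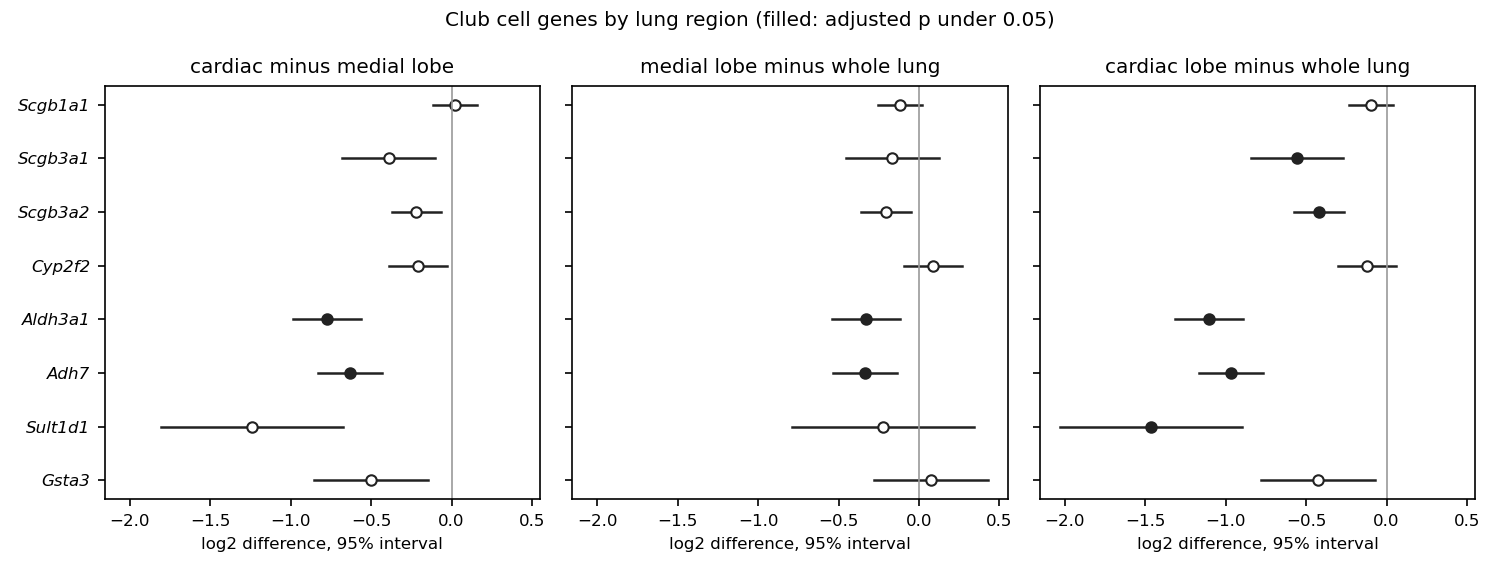
Fitted log2 difference with its 95% interval for each of the 8 genes between the cardiac and medial lobe, the medial lobe and the whole lung, and the cardiac lobe and the whole lung, over 7 conditions; filled points have a limma adjusted p under 0.05. Aldh3a1 and Adh7 are filled in all 3 panels, and Scgb1a1 lies within 0.12 of 0 in each.

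Markers of other cells differed between the regions as well. In the lobes against the whole lung, 8 of 10 mucous cell markers were lower (Clca1, a secreted protein of goblet cells, by 1.80 ± 0.47, and the trefoil peptide Tff2 by 1.10 ± 0.23). So were 6 of 9 basal and squamous markers, led by the keratins Krt15 (-1.16 ± 0.13) and Krt5 (-1.02 ± 0.26), and 3 of 13 ciliated cell markers, led by the axonemal gene Hydin (-0.51 ± 0.14). By contrast, 10 of 12 alveolar type II markers, led by Etv5 (0.84 ± 0.08), and 5 of 9 type I markers, led by the water channel Aqp5 (0.43 ± 0.07), were higher in the lobes, where 20.3% of all genes were called higher. On 19 arrays these counts were 6, 4, 3, 10 and 6. Both sets of counts include the day 28 whole lung array with its high squamous keratins. Krt5 was 8.26 and Krt15 was 7.32 there, against at most 6.56 and 7.12 elsewhere. The basal and squamous list was not counted without that array. The mean level of the mucous list ran from 6.30 to 7.70 in the medial lobe, 6.22 to 8.08 in the cardiac lobe and 6.68 to 8.02 in the whole lung, and that of the basal and squamous list from 5.02 to 5.36, 5.10 to 5.41 and 5.34 to 7.02. Their part in the results for the 8 genes was not tested. Between the lobes none of the markers of these cell types passed. At an unadjusted limma p under 0.05, 9 of 13 ciliated markers (all 9 lower in the cardiac lobe), 2 of 10 mucous, 1 of 9 basal and squamous and 4 of 9 type I markers differed, beside 9.42% of all genes. The ciliated list mean ran from 8.26 to 8.96 in the medial and 7.78 to 8.49 in the cardiac lobe.

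Other secretory genes of the airway did not all follow the 8. Of 18 measured, 4 were lower in the lobes than in the whole lung, led by the antimicrobial proteins Bpifa1 (-1.57 ± 0.30) and Bpifb1 (-0.88 ± 0.22) and by Lypd2 (-0.53 ± 0.09), and 1, the mucin Muc1, was higher (6 and 2 on 19 arrays). Their median difference was 0.03, close to the 0.01 of all genes, where that of the 8 was -0.34. Between the lobes 0 of 18 passed, with 11 of 18 at an unadjusted limma p under 0.05, all lower in the cardiac lobe, and the median of the 18 was -0.34. Of all genes, 9.42% had that unadjusted p between the lobes, in either direction. In the whole set of other xenobiotic enzymes, 4 of 25 were higher and 2 lower in the lobes than in the whole lung (5 and 4 on 19 arrays), and 0 of 25 passed between the lobes (1 lower on 19 arrays), with 11 of 25 at an unadjusted limma p under 0.05, again all lower in the cardiac lobe. Of 18 airway transcription factors and Notch genes 7 were higher in the lobes (9 on 19 arrays), beside the 20.3% of all genes called higher, led by Hey1 (0.49 ± 0.09), Foxa2 (0.38 ± 0.06) and Notch1 (0.38 ± 0.06).

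Around the day 3 and day 7 falls, genes of related function moved as follows, in limma tests over all genes. On day 3, 1 of 18 other airway secretory genes was lower, the cytochrome P450 Cyp4b1 (-0.55 ± 0.15), and on day 7 there were 3: the paraoxonase Pon1 (-1.06 ± 0.31), the aldehyde oxidase Aox3 (-0.84 ± 0.21) and Cyp4b1 (-0.77 ± 0.15). Of 25 other xenobiotic enzymes, 4 were lower on day 3, among them the sulfotransferase Sult1a1 (-0.96 ± 0.09) and Cyp2b10 (-0.84 ± 0.19), and 1 was higher, Cyp1b1 (1.56 ± 0.40), where 3.97% of all genes were called higher. On day 7, 10 of the 25 were lower, led by Cyp2e1 (-1.56 ± 0.42), Cyp2b10 (-1.06 ± 0.19) and the quinone reductase Nqo1 (-0.99 ± 0.27). On the 19 other arrays, the xenobiotic counts were 9 lower and 1 higher on day 3 and 6 lower on day 7, and the airway secretory counts 6 and 2 lower.

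Regulators were counted too. Of 12 targets of NRF2, the stress-activated factor that binds the antioxidant response element, 2 were higher on day 3, the heme oxygenase Hmox1 (1.26 ± 0.28) and the sulfiredoxin Srxn1 (0.40 ± 0.11), and 1, Nqo1, was lower on day 7. On 19 arrays 4 were higher and 1 lower on day 3, and 0 were called on day 7. Of 18 airway transcription factors and Notch genes, 3 were lower on day 3, the epithelial factors Grhl2 (-0.49 ± 0.11), Foxa2 (-0.40 ± 0.10) and Nkx2-1 (-0.37 ± 0.09), and 2 on day 7, the Notch target Hes1 (-0.92 ± 0.21) and Foxa2 (-0.49 ± 0.10). On 19 arrays these counts were 6 and 2.

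Ciliated and mucous cells share the airway lining with club cells. Of 13 ciliated markers 1 was lower on day 3 (Dnah9, -0.55 ± 0.14) and 6 on day 7, led by Hydin (-0.88 ± 0.25), Dnah5 (-0.75 ± 0.17) and Dnaic1 (-0.74 ± 0.20). On 19 arrays the order of the days turned round, with 8 of 13 lower on day 3 and 1 on day 7, and the day 7 median went from -0.57 to -0.31. The ciliated list mean ran from 8.45 to 8.96 on day 0, 8.26 to 8.55 on day 3 and 7.78 to 8.53 on day 7. Of 10 mucous markers 2 were higher on day 7, Clca1 (3.18 ± 0.83) and the mucin Muc5ac (1.79 ± 0.34), where 3.73% of all genes were called higher, and 0 on day 3, where Agr2 was the only 1 with an unadjusted p under 0.05, at 1.17 ± 0.51 (limma adjusted p = 0.212). The mucous list mean ran from 6.81 to 7.41 on day 0, 6.54 to 7.55 on day 3 and 7.70 to 8.08 on day 7. Some alveolar type I markers were lower on both days, and type II markers were lower mainly on day 3. Of 9 type I markers 2 were called lower on day 3, Rtkn2 (-0.75 ± 0.18) and Hopx (-0.33 ± 0.09), and 2 on day 7, Rtkn2 (-0.87 ± 0.18) and Akap5 (-0.56 ± 0.15), with 6 and 7 of 9 lower at an unadjusted limma p under 0.05. Of 12 type II markers 1 was called lower on day 3, Etv5 (-0.49 ± 0.14), and 0 on day 7, with 8 and 1 of 12 lower at that unadjusted p. Of all genes, 19.6% and 29.6% had that unadjusted p on days 3 and 7, in either direction. On 19 arrays the called counts were 6 and 1 for type I and 4 and 0 for type II. The type I list mean ran from 11.50 to 11.65 on day 0, 10.98 to 11.53 on day 3 and 11.01 to 11.46 on day 7. That of type II ran from 11.80 to 12.12, 11.21 to 11.93 and 11.58 to 12.12. The part of all these cells in the falls of the 8 was not tested.

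**Figure D4:**
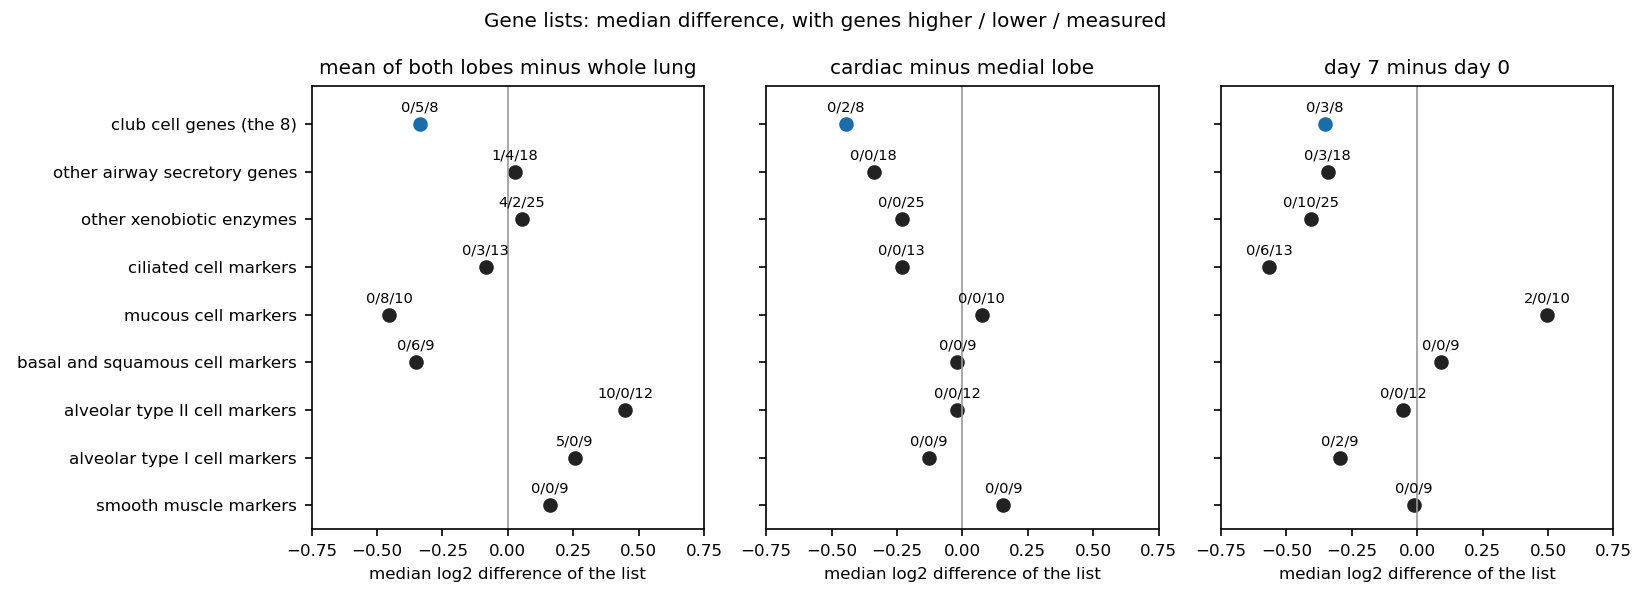
Median fitted log2 difference (x axis) of 9 gene lists in 3 comparisons, with the number of genes called higher, called lower and measured above each point; the 8 club cell genes are in blue. The 8 lie below 0 in all 3 panels, with 5, 2 and 3 genes called lower, and the mucous list lies below 0 between lobes and whole lung and above 0 on day 7.

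Whether the early falls differed between regions was tested on means of days 3 and 7 against day 0 and sham within each region. This model had no condition term. Its p-values rest on how far the conditions averaged together, such as day 0 and sham, differed within a region. In the cardiac lobe 4 of 8 passed, where 2.99% of genes were called lower: Sult1d1 (-1.85 ± 0.42), Gsta3 (-1.33 ± 0.28), Aldh3a1 (-1.01 ± 0.21) and Cyp2f2 (-0.49 ± 0.14). In the medial lobe and in the whole lung 0 of 8 passed, with 0.0% and 0.171% of genes called lower. At an unadjusted limma p under 0.05 there were 1 and 2 members in these regions, Aldh3a1 in both and Gsta3 in the whole lung, beside 9.39% and 10.3% of all genes. The medial and whole lung values were -0.88 and -0.62 for Sult1d1, -0.53 and -0.61 for Gsta3, and -0.62 and -0.57 for Aldh3a1. Each of Sult1d1, Gsta3 and Aldh3a1 lost its cardiac call without the day 0, day 7 or sham cardiac array, and without the day 7 array they were at -1.04, -0.95 and -0.86. Cyp2f2 kept its call in only 3 of 21 such fits, and without the day 7 cardiac array it was at -0.22. When both arrays that stood apart were omitted, Aldh3a1 alone of the 8 passed in the cardiac lobe (-0.86 ± 0.20, limma adjusted p = 0.0395).

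The difference itself did not pass for any of the 8, nor for any of the 19938 genes (0.0%). The cardiac minus medial difference in early response was -0.97 for Sult1d1 (95% interval -2.24 to 0.29), -0.80 for Gsta3 (-1.64 to 0.03), -0.42 for Cyp2f2 (-0.83 to -0.01) and -0.38 for Aldh3a1 (-1.02 to 0.26), with limma adjusted p of 0.964 for each. At an unadjusted p under 0.05 there was 1 of the 8, Cyp2f2, and 4.35% of all genes. Without the day 3 cardiac array Cyp2f2 was at -0.69, but the day 7 cardiac array, which stood apart, was then the only early array of that lobe. On the 19 arrays, where day 3 alone was early in the cardiac lobe, the difference was -0.16 for Sult1d1 and -0.42 for Gsta3. It was -0.15 for Cyp2f2 and -0.23 for Aldh3a1. For the whole lung against the lobes, 0 of 8 passed (0.0% of genes), with 0 of 8 at an unadjusted p under 0.05 (2.24% of genes), and the values ran from -0.17 for Scgb3a1 to 0.74 for Sult1d1. The calls in 1 region alone therefore do not show that the cardiac lobe responded differently.

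The 8 genes did not vary as 1 unit across the arrays. After each gene's region mean was taken off, the 28 pairs had Pearson correlations from -0.37 to 0.90 over 21 arrays, with a median of 0.20 and 18 above 0. The arrays share conditions, so this is a description without a test. The genes most like the mean of the 8 by that measure were Ces1d, a lung carboxylesterase and one of the other xenobiotic enzymes counted above (r = 0.94, and 0.86 without the 2 arrays), then Zc2hc1a, Fsd2, Tmod1, Slc44a3, Stk33, the cytochrome P450 Cyp4f15, Oxr1, Gdpd1 and Cdc14a (0.93 to 0.92). Most like Scgb1a1 alone were Baiap2l1 (0.93), the small RNA genes Rn7sk (0.91), Rny3 (0.83) and Snord73b (0.76), and Rab11a (0.70). The first 3 of these also sat near the top of the scale, with means of 13.62, 13.66 and 13.44.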

How the data were processed

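RNA of 21 right lung samples was measured on Affymetrix arrays with 1 sample per array. The table as deposited has log2 values that the authors made with RMA (background correction, normalization between arrays and summary over probes), per the submitters' processing notes. Its settings are not stated in those notes, and the labels give 1 hybridisation date for all samples, so no batch could be set. The labels' protocol describes labelling from the 3' end, while the probe annotation belongs to an array read over whole transcripts, and which was used is unsettled.

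The platform annotation gave 1 gene symbol for 21789 of 35556 probe sets. Each of 19938 genes was represented by its probe set with the highest mean, and each of the 8 genes had 1. Cross-hybridisation between related genes, such as the glutathione transferases of the alpha class, was not checked. limma 3.58.1 in R 4.3.3 fitted condition and region to all 21 arrays (12 residual degrees of freedom). Early response set the mean of days 3 and 7 against that of day 0 and sham within each region. Later days formed a group of their own, and this model had no condition term. Adjusted p-values are Benjamini-Hochberg over all genes within a comparison, at a threshold of 0.05. The procedure was tested on simulated data.

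The 8 genes and the 14 other gene lists were chosen with earlier results of these data known. The text names all 8 genes, and of other lists up to 3 called genes by size of difference, or up to 2 by p where none was called. Likeness was the Pearson correlation after removal of region means, predicted genes left out, with 10 genes named for the 8 and 5 for Scgb1a1. The alternatives were no region term (for regions, no condition term), mean of probe sets, dimmer genes left out, trend and robust moderation, median centring, lobes alone and each array left out. Leaving out the 2 arrays that stood apart, and the keratin-rich array for regions, was chosen after the data were seen.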

Additional observations from a re-analysis of the deposited data

Results flagged for a closer look

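In each of the 8 genes the 7 arrays of each region were searched for a lowest or highest value far from its neighbours (Dixon's test), and 2 of 24 groups had one; chance gives about 1 in 20. Scgb1a1 in the medial lobe was 12.83 on day 0, below the other 6 medial arrays, which ran from 13.25 to 13.40. Cyp2f2 in the cardiac lobe was 12.49 on day 7, below the other 6 cardiac arrays, which ran from 13.03 to 13.29. Both genes sit near the top of the scale. The mean over the 20 brightest genes was 13.093 and 13.092 on these 2 arrays, hardly below the range of the other arrays, 13.095 to 13.213. On the day 0 medial array Cyp2f2 had its highest medial value (13.36), and on the day 7 cardiac array Scgb1a1 had its highest cardiac value (13.36). A link between these 2 low values and the top of the scale was not tested.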

How the results depend on the processing

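Without the region term (no replicate block, which for regions means no condition term), the 8 genes gave 0 calls on days 3, 7 and 14 against day 0, 0 on days 3 and 7 against sham, 0 among all conditions, and 0 for cardiac against medial and for medial against whole lung. With the lobes alone, 0 were called on day 3 and day 14 and among all conditions, and 2 on day 7 against sham. Centring arrays on their medians gave 1 call for day 14 against day 7, that of Aldh3a1 (0.64, limma adjusted p = 0.0498). Without the 2 arrays that stood apart, calls were 4, 1 and 2 on days 3, 7 and 14 against day 0 (7.75%, 2.82% and 2.45% of all genes lower). There was 1 for sham against day 0 (1.72% of genes, either direction), and 2 and 2 on days 3 and 7 against sham (6.55% and 1.28% lower). Among all conditions 4 were called (12.5% of genes), and 1 in the early response of the cardiac lobe (0.582% lower). Leaving out 1 array at a time gave 1 to 4 calls on day 3, 0 to 4 on day 7, 0 to 1 on day 14 and 0 to 1 for sham, all against day 0. It gave 1 to 2 and 0 to 3 on days 3 and 7 against sham, 1 to 3 among all conditions, 1 to 2 for cardiac against medial, 4 to 5 for lobes, 0 to 3 for medial and 5 to 6 for cardiac against whole lung, 0 to 4 for the early response in the cardiac lobe and 0 to 1 for its difference from the medial lobe. Each other comparison stayed at 0 with any 1 array left out. The shares of all genes called in the fits with 1 array left out are not given here. The mean of probe sets, trend and robust moderation, and leaving out dim genes gave counts equal to, or within 1.5 times of, those reported. No direction of a called gene reversed in any setting. Each probe set on its own was not run, because each of the 8 genes has 1.

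The labels give no replicate numbers, and region is the block. The causes of these shifts were not tested beyond the fewer arrays each fit holds. The file holds no detection calls, and 1 array per region and condition limits every comparison.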

Other observations

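Markers of the pleural lining and of blood cells moved in the same arrays, in limma tests over all genes. On day 3, 6 of 9 mesothelial markers rose against day 0, led by the transcription factor Wt1 (1.36 ± 0.16) and the mucin Muc16 (0.75 ± 0.20), and on day 7 there were 3 of 9, with 6 and 4 on 19 arrays. Of 11 leukocyte markers, Itgam, an integrin of myeloid cells, rose on day 3 (2.39 ± 0.43) and 4 fell, led by the T cell receptor chain Cd3g (-1.13 ± 0.17) and the B cell antigen Ms4a1 (-1.11 ± 0.23). On day 7, 6 of the 11 fell, led by Ms4a1 (-1.92 ± 0.23) and Cd3g (-1.59 ± 0.17). On 19 arrays 2 rose and 5 fell on day 3 and 4 fell on day 7. Airway cartilage gave 2 of 10 higher on day 7 (Sox9 and Col2a1), and neuroendocrine markers gave 1 of 6 lower on days 3 and 7 (Resp18). On 19 arrays neither list had a called gene on day 7, 1 cartilage marker was higher on day 3, and 1 neuroendocrine marker was lower on day 3.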
